A study of Sus scrofa with 9 samples.

Results

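The genes of voltage-gated and potassium ion channels were followed in the myocardium of 9 porcine hearts. They were taken by symbol, as every row of the expression table whose symbol begins with KCN, CACN, SCN and a digit, or HCN and a digit. This gave 107 genes of 25149 rows, 13143 of which carry a symbol. By prefix they fall into 14 sodium, 19 calcium, 71 potassium and 3 pacemaker channel genes. Of these, 21 reached at least 1 TPM (reads of a gene corrected for its length and scaled to 1000000 per library) in at least 3 hearts and were tested, 2 of the sodium, 4 of the calcium, 15 of the potassium and 0 of the pacemaker class. The other 86 did not reach that level.

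All hearts came from female American Yorkshire pigs of 4 to 6 months, donated after circulatory death with 15 min of warm ischemia. In Group 1, named NRP + HOPE 24 h (pigs 27, 28 and 30), hearts were first reperfused with warm blood inside the donor for 60 min, a step called normothermic regional perfusion (NRP). They were then kept for 24 h on hypothermic oxygenated perfusion (HOPE) at 8 °C. In Group 2, NRP + SCS 2 h (pigs 24, 25 and 29), the same NRP was followed by 2 h of static cold storage (SCS) at 4 °C. In Group 3, No NRP + HOPE 2 h (pigs 31, 33 and 34), hearts had no NRP and 2 h of HOPE at 8 °C. Every heart was then reperfused and paced for 2 h by normothermic machine perfusion, and 1 apex biopsy was frozen at its end. Each comparison therefore changed more than 1 thing: storage method, duration and temperature between Groups 1 and 2, NRP and storage between Groups 3 and 2, and NRP and duration between Groups 1 and 3. Their parts cannot be told apart. No heart was sampled before donation, so no level below is a change from the healthy state.

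Ion channels of the sarcolemma shape the cardiac action potential. Sodium channels carry the fast upstroke and set conduction velocity. L-type calcium channels hold the plateau and trigger contraction, and several families of potassium channels repolarize the cell and fix its resting potential. Most channels are a pore-forming subunit with auxiliary subunits that change its gating or its delivery to the membrane. Pacemaker (HCN) channels are best known from the sinoatrial node and the conduction system.

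Depth could not be read from the table, since every column was scaled to 1000000, so no counting error is given. The labels name the cell type as cardiomyocytes, but the biopsies are whole myocardium: the 9 cardiomyocyte markers in the table (troponins, MYH7, MYL3, ACTC1, MYBPC3, ACTN2 and RYR2) summed to 31810 to 60710 TPM per heart, and endothelial markers to 434 to 969 TPM. In such bulk samples, fewer cells of a type and less RNA per cell cannot be told apart. The 13 mitochondrially encoded genes took 38.2% of all TPM in pig 30 and 44.8% in pig 34, against 48.55% to 55.35% in the other hearts, which leaves more of the total to every other gene in those 2 hearts. A value of 0 was read only as listed at 0: MYH11, the smooth muscle myosin, is listed at 0 in all 9 hearts although ACTA2, the smooth muscle actin, ranged from 15.8 to 88.1 TPM.

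Potassium channel genes made up most channel transcript in every heart. Their summed TPM was 98.55, 133.6 and 136.5 in the SCS hearts (pigs 24, 25 and 29), 100.3, 96.82 and 224.8 in the HOPE 24 h hearts (pigs 27, 28 and 30) and 107.1, 101.8 and 172.4 in the No NRP hearts (pigs 31, 33 and 34). This was 65.2% to 78.2% of all channel TPM, against 16.6% to 29.2% for calcium and 2.61% to 5.67% for sodium channel genes. Groups overlapped in the potassium, calcium and sodium classes. The pacemaker sum was 0.0737 to 0.84 TPM in SCS, 0.176 to 0.323 TPM in HOPE 24 h and 0.519 to 0.763 TPM in No NRP hearts, so the HOPE 24 h hearts lay below the No NRP hearts at levels under 1 TPM. The potassium sum was 123 ± 21.1 TPM in SCS, 141 ± 72.9 in HOPE 24 h and 127 ± 39.3 in No NRP hearts (SD, n = 3 each). The calcium sum was 37.5 ± 5.83, 35.7 ± 10.7 and 39.4 ± 19.4 TPM, and the sodium sum 9.0 ± 0.58, 9.43 ± 6.07 and 7.71 ± 4.48 TPM, in the same order of groups. The sodium sum was 5.33 and 6.55 TPM in pigs 27 and 28, below the 8.396 to 9.555 TPM of the SCS hearts, and 16.4 TPM in pig 30. The 2 hearts with the least mitochondrial transcript, pigs 30 and 34, had the 2 highest sums in each class but the pacemaker class. The 21 tested genes held 90.6% to 96.5% of channel TPM, and the first 5 genes of each heart 59.9% to 69.9%.

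**Figure D1:**
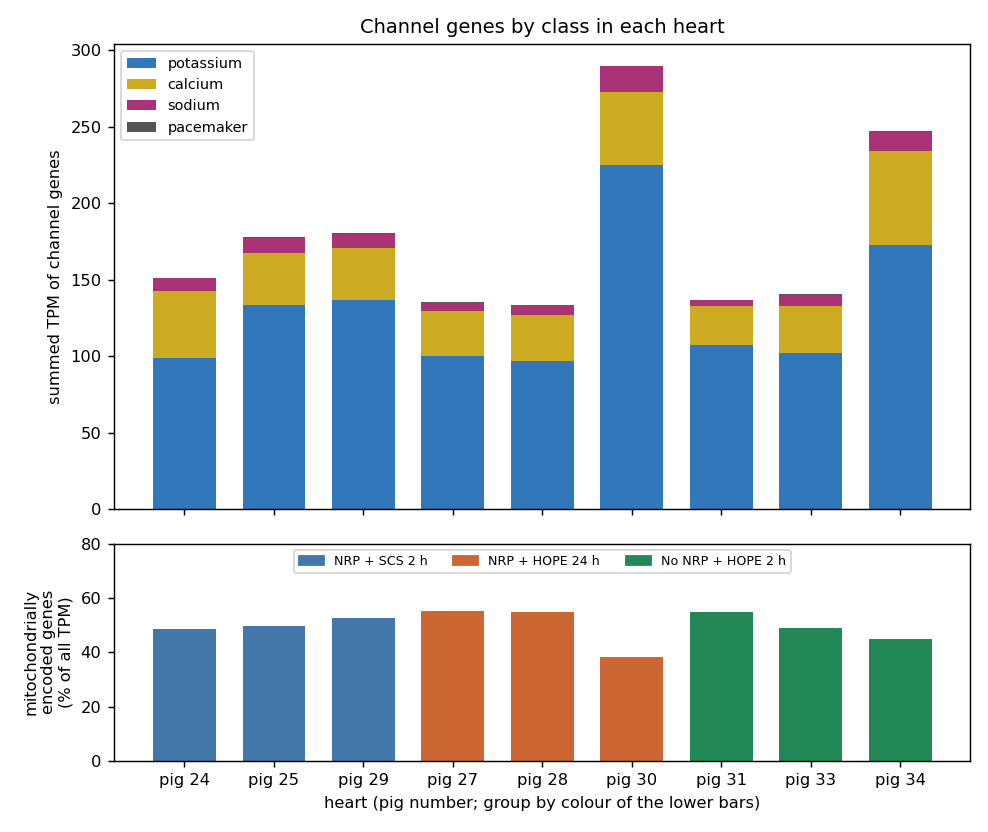
The upper panel stacks the summed TPM of potassium, calcium, sodium and pacemaker channel genes in each of the 9 hearts, and the lower panel gives the share of all TPM in mitochondrially encoded genes, in percent, coloured by group. Channel sums reached 289 TPM in pig 30 and 247 TPM in pig 34, where the mitochondrial share was lowest, and ranged from 133.5 to 180.5 TPM in the other 7 hearts.

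Of the 14 sodium channel genes, 12 stayed below the filter. SCN4B, an auxiliary beta subunit, was listed at 0 in 7 hearts and at 0.03 and 0.1 TPM in pigs 33 and 34. The 12 genes, most of them known from neurons or skeletal muscle, were below 1 TPM in every heart. The highest of them, SCN7A, averaged 0.533 TPM, and SCN1A, SCN10A and SCN11A were listed at 0 in all 9 hearts.

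The tested calcium channel genes were 1 of each kind of subunit. CACNA1C, the pore of the L-type channel, was at 27.9, 18.1 and 16.7 TPM in SCS, 16.1, 15.8 and 25.4 TPM in HOPE 24 h and 10.5, 14.3 and 33.1 TPM in No NRP hearts. The No NRP group held both the lowest and the highest heart. CACNB2, the beta subunit that brings the channel to the membrane, was at 5.52, 6.71 and 7.05 TPM, then 5.02, 4.34 and 8.35 TPM, then 6.44, 5.46 and 14.0 TPM, in the same order of groups and hearts. CACNA2D1, the alpha2delta subunit, was at 6.75, 5.48 and 5.09 TPM in SCS, 2.99, 4.68 and 5.11 TPM in HOPE 24 h and 2.20, 3.15 and 5.07 TPM in No NRP hearts, the SCS hearts lying above all No NRP hearts by a margin of hundredths of a TPM between pigs 29 and 34. CACNG6, a gamma subunit, had the smallest unadjusted p of the 21 tested genes in both comparisons with SCS hearts: 1.01, 2.11 and 2.13 TPM in SCS, 3.53, 2.85 and 6.45 TPM in HOPE 24 h and 4.28, 2.84 and 6.89 TPM in No NRP hearts. All 6 hearts stored by HOPE lay above all 3 SCS hearts, and the 2 HOPE groups overlapped. This split of 6 against 3 hearts was read with the values in view, and the share of all genes that show it was not counted. CACNA1G, a T-type pore, reached 1 TPM only in pig 33, at 1.54 TPM, and was at 0.114 to 0.946 TPM in the other hearts. CACNA1D and CACNA1S, the L-type pores of the sinoatrial node and of skeletal muscle, stayed at or below 0.385 TPM and 0.025 TPM.

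Inward rectifiers, which set the resting potential, led the potassium class. KCNJ4, of the strong rectifiers behind the resting potassium current, was the most abundant of the genes chosen by symbol in 8 of 9 hearts, with CACNA1C first in pig 24. Its level was 22.7, 50.9 and 42.3 TPM in SCS, 38.4, 31.0 and 89.6 TPM in HOPE 24 h and 22.8, 21.8 and 48.5 TPM in No NRP hearts, and the 3 groups overlapped. KCNJ8, the pore of an ATP-sensitive channel best known from vascular muscle and pericytes, was at 15.8, 14.4 and 18.8 TPM in SCS, 7.38, 8.85 and 19.9 TPM in HOPE 24 h and 15.5, 13.0 and 35.0 TPM in No NRP hearts. Pigs 27 and 28 had the lowest KCNJ8 of all 9 hearts. KCNJ5, a subunit of the acetylcholine-activated channel, ranged from 1.32 to 4.01 TPM with no separation of groups. KCNJ14, another strong rectifier, was at 2.69, 1.72 and 2.64 TPM in SCS, 3.47, 4.82 and 2.51 TPM in HOPE 24 h and 1.99, 2.58 and 1.02 TPM in No NRP hearts, with pig 30 just below pig 33. The symbols KCNJ2, KCNJ3, KCNJ11 and KCNJ12 have no row in the table under those names and were not analysed here, so KCNJ4 leads only among the rectifiers measured.

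Among voltage-gated potassium channels, KCNA5 and KCNH2 were well above the filter. KCNA5, the pore of the ultrarapid delayed rectifier, was at 9.82, 15.4 and 8.30 TPM in SCS, 9.66, 9.33 and 26.6 TPM in HOPE 24 h and 15.5, 19.0 and 20.0 TPM in No NRP hearts. All 3 No NRP hearts lay above the SCS hearts, by 15.47 against 15.42 TPM at the nearest pair. KCNH2, the pore of the rapid delayed rectifier, was at 8.18, 14.2 and 16.1 TPM, then 8.35, 4.62 and 13.1 TPM, then 9.78, 6.70 and 21.9 TPM, and its groups overlapped. Of the pores of the transient outward current, KCND2 was listed at 0 in 8 hearts and KCND3 in 7, and KCNA4 reached at most 0.322 TPM.

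Of the 11 auxiliary potassium genes chosen by symbol, 4 passed the filter, and KCNIP2 was the most abundant of them. KCNIP2, a calcium-binding partner of KCND channels, was at 17.8, 17.5 and 22.8 TPM in SCS, 16.0, 17.0 and 40.8 TPM in HOPE 24 h and 19.5, 16.1 and 18.8 TPM in No NRP hearts. Apart from pig 30 the hearts lay within 16.0 to 22.8 TPM. KCNAB1, a cytoplasmic beta subunit, was at 2.02, 1.04 and 2.03 TPM in SCS, 1.27, 3.07 and 2.43 TPM in HOPE 24 h and 2.25, 2.5 and 3.22 TPM in No NRP hearts, with the No NRP hearts above the SCS hearts. KCNE3 ranged from 2.22 to 10.5 TPM without order by group. KCNMB1, the beta subunit of the large-conductance channel of vascular smooth muscle, was at 1.82, 0.443 and 3.15 TPM in SCS, 1.49 and 1.16 TPM and listed at 0 in HOPE 24 h, and 3.28, 1.99 and 1.67 TPM in No NRP hearts. All HOPE 24 h hearts lay below all No NRP hearts. KCNMA1, its pore, was at most 0.437 TPM.

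The Ensembl name table gives the identifiers of 3 rows without a symbol to channel genes. Among them is KCNE1, the auxiliary subunit of the slow delayed rectifier. It lies outside the choice by symbol and is in none of the class sums or counts of members, but its level exceeded that of every channel gene in all 9 hearts, at 51.6, 72.6 and 50.7 TPM in SCS, 50.9, 40.5 and 97.2 TPM in HOPE 24 h and 63.0, 70.6 and 98.7 TPM in No NRP hearts. The log2 fold change was 0.03 (SE 0.34) in HOPE 24 h against SCS, 0.40 (SE 0.34) in No NRP against SCS and -0.37 (SE 0.34) in HOPE 24 h against No NRP hearts, with adjusted p of 0.997, 0.879 and 0.957 by limma. Its pore, KCNQ1, has no row under that symbol and was not analysed here.

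The calcium-activated, sodium-activated and two-pore potassium genes that passed the filter were low. KCNN2, a small-conductance calcium-activated channel, was at 2.17, 0.792 and 3.25 TPM in SCS, 2.38, 0.774 and 1.16 TPM in HOPE 24 h and 2.75, 1.52 and 8.15 TPM in No NRP hearts, with pig 34 far above the other 8 hearts. KCNT2 (0.1 to 1.27 TPM), KCNK7 (0.137 to 3.23 TPM) and KCNK13 (0.163 to 2.21 TPM) crossed 1 TPM in some hearts of every group. KCNK3, an acid-sensitive two-pore channel known from atrium, reached 1 TPM only in pig 30, at 1.37 TPM. All 3 pacemaker genes stayed below 1 TPM: HCN4, the main sinoatrial form, at 0 to 0.176 TPM and HCN3 at 0 to 0.723 TPM among them. HCN2 has no row under its symbol. Over the 86 genes that did not pass, 80 were below 1 TPM in every heart, 20 of them listed at 0 throughout, and 6 reached 1 TPM in 1 or 2 hearts (CACNA1G, CACNA2D3, CACNB1, KCNJ15, KCNK3 and KCNN3). Some of these low genes also lay apart between groups. KCNT1, a sodium-activated channel, was at 0 to 0.057 TPM in SCS, 0.1 to 0.178 TPM in HOPE 24 h and 0.251 to 0.448 TPM in No NRP hearts, and CACNA1G was at 0.114 to 0.188 TPM in SCS against 0.501 to 1.54 TPM in No NRP hearts. Both were below the filter and were picked after their values were seen.

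**Figure D2:**
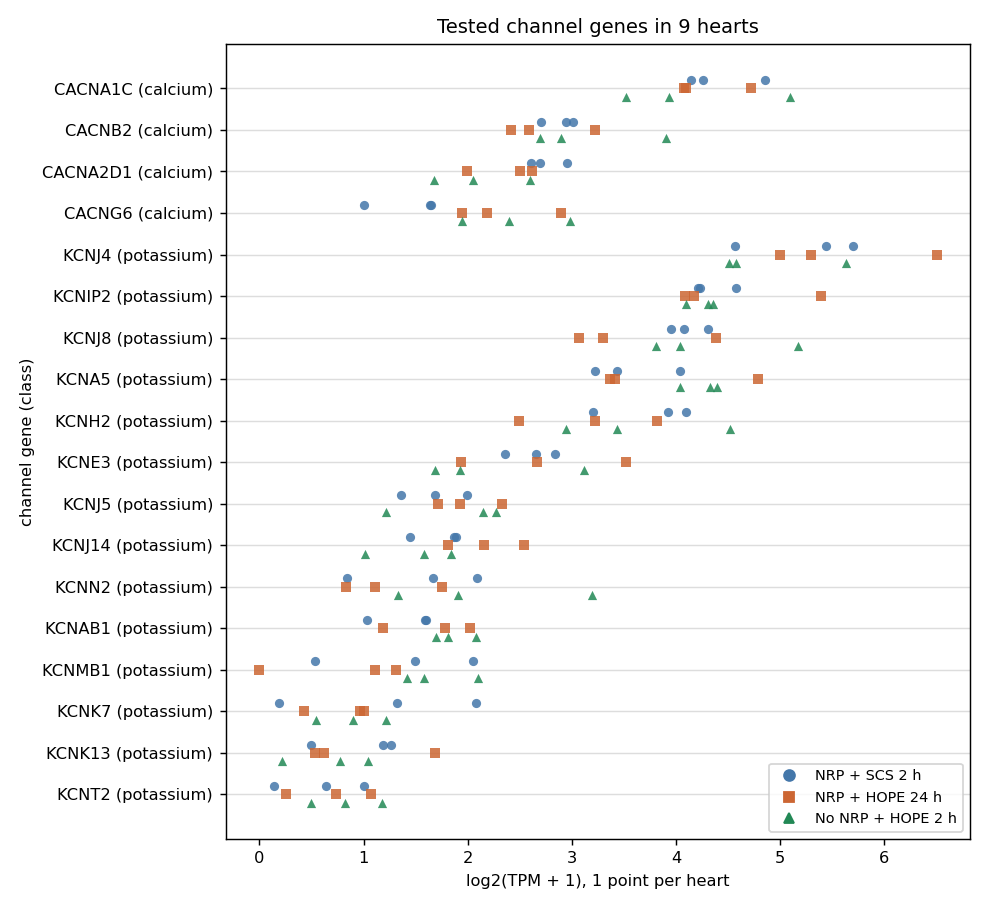
Each point is the level of a channel gene in a heart, for 18 of the 21 tested, as log2(TPM + 1), with genes grouped by class and ordered by their mean, and colour and marker giving the group. The groups overlap for most genes, CACNG6 is lowest in the 3 SCS hearts, and KCNJ4 extends furthest to the right, in pig 30 at 89.6 TPM.

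Among the named genes that were chosen by symbol, which leaves out KCNE1, the order in mean TPM over the 9 hearts was KCNJ4 (40.9), KCNIP2 (20.7), CACNA1C (19.8), KCNJ8 (16.5), KCNA5 (14.9), KCNH2 (11.4), CACNB2 (6.98), KCNE3 (5.21), CACNA2D1 (4.50) and CACNG6 (3.57). TPM is per length, so these levels may be set side by side, but neighbours from KCNIP2 down to KCNA5 changed places from heart to heart and their order is not larger than their spread. The coefficient of variation over hearts was 31.9% for CACNA2D1 and 37.3% for CACNA1C, and 89.1% for KCNN2, the most variable of the tested genes. The median SD of the channel genes within groups was 0.561 on the log2(TPM + 1) scale, against 0.417 over all 11782 genes tested, with the members ranging from 0.332 for KCNAB1 to 0.716 for KCNN2 among the genes named here. This difference was not tested, and the genes were not matched for level.

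Ratios within a heart do not depend on the scaling of its library. Of 6 ratios, picked with the values in view and given without a test, that of CACNG6 to CACNA1C was 0.0363 to 0.128 in SCS, 0.18 to 0.254 in HOPE 24 h and 0.198 to 0.408 in No NRP hearts. The lowest, in pig 24, pairs the lowest CACNG6 with the second highest CACNA1C of the 9 hearts. The ratio of KCNA5 to KCNIP2 was 0.363 to 0.88, 0.549 to 0.65 and 0.794 to 1.18, with HOPE 24 h below No NRP. KCNH2 to KCNJ4 was 0.147 to 0.217 in HOPE 24 h hearts, below the 0.279 to 0.38 of SCS and the 0.308 to 0.451 of No NRP hearts. KCNJ8 to KCNJ4 was 0.192 to 0.285 in HOPE 24 h, 0.284 to 0.696 in SCS and 0.598 to 0.72 in No NRP hearts.

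**Figure D3:**
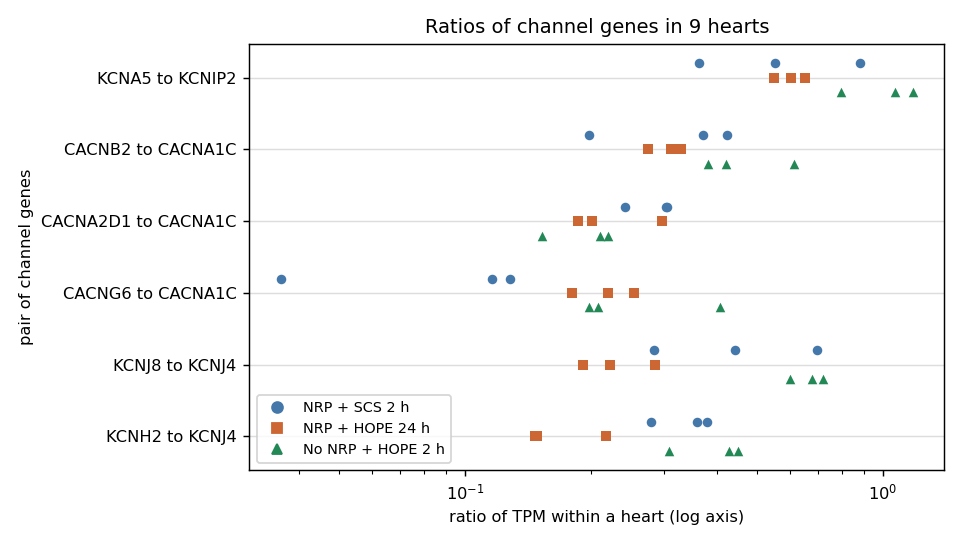
Ratios of TPM between pairs of channel genes are plotted on a log axis, 1 point per heart, with groups by colour and marker. CACNG6 to CACNA1C is lowest in the SCS hearts, at 0.0363 to 0.128, and KCNH2 to KCNJ4 is lowest in the HOPE 24 h hearts, at 0.147 to 0.217.

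The comparison of NRP + HOPE 24 h with NRP + SCS 2 h asks what the longer, oxygenated storage changed in hearts that had NRP. A gene was called where limma on log2(TPM + 1) gave an adjusted p under 0.05 with a log2 fold change beyond 1 in either direction. No channel gene was called, where 0.0255% of all 11782 genes were called. At an unadjusted p under 0.05, 1 of the 21 channel genes was higher and 0 lower, beside 1.82% and 3.14% of all genes. CACNG6 was that gene, at 4.28 ± 1.91 against 1.75 ± 0.64 TPM (SD, n = 3 each). Its log2 fold change was 0.91 (SE 0.38, 95% interval 0.10 to 1.72), with an unadjusted p of 0.0301 and an adjusted p of 0.943 by limma, so it did not pass. The exact permutation test gave 0.1, the smallest two-sided p that 3 against 3 hearts allow. Without pig 24 the unadjusted p was 0.124 and without pig 30 it was 0.12, both by limma in the same fit, at log2 fold changes of 0.70 and 0.63.

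The next channel genes in this comparison were not past any threshold. Their log2 fold changes were 0.44 for KCNJ14 (SE 0.34), -0.53 for KCNJ8 (SE 0.41), -0.56 for KCNH2 (SE 0.44) and -0.55 for KCNMB1 (SE 0.45), each with an adjusted p of 0.993 by limma. Without pig 30, KCNJ8 was at -0.93 (unadjusted p = 0.0353 and adjusted p = 0.447 by limma), KCNH2 at -0.88 and KCNMB1 at -0.15. The pore CACNA1C at -0.12 (SE 0.40) and the rectifier KCNJ4 at 0.37 (SE 0.44) were within their error of 0. The median over the 21 genes was -0.035, with 10 above and 11 below 0, and over all genes it was -0.12. All hearts of a group lay apart from those of the other for 1 of 21 channel genes (4.76%), CACNG6, against 9.82% of all genes.

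The comparison of No NRP + HOPE 2 h with NRP + SCS 2 h asks how hearts without NRP and with HOPE differed from hearts with NRP and SCS. No channel gene was called, beside 0.0509% of all genes. At an unadjusted p under 0.05, 1 channel gene was higher and 0 were lower, beside 2.57% and 4.65% of all genes. It was again CACNG6, at 4.67 ± 2.05 against the same 1.75 ± 0.64 TPM, with a log2 fold change of 1.01 (SE 0.38, 95% interval 0.20 to 1.82), an unadjusted p of 0.0182 and an adjusted p of 0.58 by limma. The SCS hearts are shared between both comparisons, so CACNG6 is not an independent result in the second. Without pig 24 the log2 fold change was 0.80 at an unadjusted p of 0.0831, and without pig 34 it was 0.74 at 0.0855, by limma. Summed erythroid markers, mostly HBB, moved the same way, at 72.3 to 136 TPM in SCS, 74.35 to 430.5 TPM in HOPE 24 h and 226 to 379 TPM in No NRP hearts, with 3 of 3 tested markers (HBB, ALAS2 and HBM) higher at an unadjusted p under 0.05 in No NRP than in SCS hearts. Pig 27 had 74.35 TPM of these markers and a CACNG6 level above every SCS heart. The paper states that the HOPE perfusate held donor packed red blood cells, while SCS hearts were submerged in preservation solution. All hearts were later reperfused with donor blood. What this difference gave to the erythroid markers was not tested. The markers of other cells given next did not pass the adjusted test in either comparison. Of 11 tested Purkinje and atrial markers, 2 had a log2 fold change above 0 and 9 below in HOPE 24 h against SCS hearts (1 and 3 at an unadjusted p under 0.05), and 4 and 7 in No NRP against SCS hearts (0 and 2). Of 11782 genes, 7555 and 6803 were below 0 in these comparisons. NR2F2, a transcription factor of atrial and venous cells, was at 6.94 to 8.93 TPM in SCS, 2.15 to 6.07 TPM in HOPE 24 h and 2.25 to 3.99 TPM in No NRP hearts, while NPPB, a natriuretic peptide, had a log2 fold change of 1.68 (SE 0.78, adjusted p = 0.993 by limma) in HOPE 24 h against SCS hearts, the 1 marker of this list higher at an unadjusted p under 0.05. Of the 2 tested neutrophil markers, S100A9 was at 1.79 to 8.02, 0.356 to 2.66 and 0 to 0.343 TPM in SCS, HOPE 24 h and No NRP hearts, and MMP9 had a log2 fold change of 0.58 (SE 0.48) in HOPE 24 h and -0.08 (SE 0.48) in No NRP against SCS hearts. Of 10 tested endothelial markers, 0 were above 0 and 10 below in HOPE 24 h against SCS hearts, and 2 above and 8 below in No NRP against SCS hearts, 0 of them at an unadjusted p under 0.05 by limma in either. The part of any of these in the CACNG6 difference was not tested.

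The groups did not overlap for 4 of the 21 channel genes (19%), against 14.7% of all genes. CACNG6, KCNA5 and KCNAB1 were higher and CACNA2D1 lower in every No NRP heart than in every SCS heart. The log2 fold change of CACNA2D1 was -0.64 (SE 0.33, adjusted p = 0.736), that of KCNA5 0.69 (SE 0.39, adjusted p = 0.767) and that of KCNAB1 0.45 (SE 0.34, adjusted p = 0.842), all by limma, and none passed. Next came KCNN2 at 0.61 (SE 0.48), which rested on pig 34. CACNA1C was at -0.23 (SE 0.40) and KCNJ4 at -0.33 (SE 0.44). The median over the channel genes was -0.11, with 9 above and 12 below 0, and over all genes -0.07.

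NRP + HOPE 24 h was also set against No NRP + HOPE 2 h, to order the groups. No channel gene was called, beside 0.0509% of all genes, and 0 of 21 were at an unadjusted p under 0.05 in either direction, beside 2.78% higher and 3.23% lower of all genes. The smallest unadjusted p was that of KCNJ14, 3.60 ± 1.16 against 1.87 ± 0.79 TPM. Its log2 fold change was 0.69 (95% interval -0.04 to 1.43, adjusted p = 0.846 by limma). KCNMB1 at -0.89 (SE 0.45), KCNN2 at -0.91 (SE 0.48), KCNJ8 at -0.76 (SE 0.41) and KCNJ4 at 0.70 (SE 0.44) followed. Single hearts moved these values, to -1.16 for KCNJ8 without pig 30 (adjusted p = 0.459), 1.06 for KCNJ4 without pig 34 (adjusted p = 0.934), -1.32 for KCNN2 without pig 33 (adjusted p = 0.722), -1.14 for KCNMB1 without pig 27 (adjusted p = 0.582) and 0.87 for KCNJ14 without pig 33 (adjusted p = 0.824), each at an unadjusted p under 0.05 by limma. In the other direction KCNJ8 was at -0.34 and KCNN2 at -0.39 without pig 34, and KCNMB1 at -0.49 and KCNJ4 at 0.25 without pig 30. KCNA5 was at -0.40 with all hearts and at -0.86 without pig 30 (unadjusted p = 0.0157 and adjusted p = 0.466 by limma). Of all genes, 7.88% were lower at an unadjusted p under 0.05 without pig 30. CACNG6 was at -0.10 between the HOPE groups (SE 0.38, 95% interval -0.91 to 0.71). In TPM as deposited, non-overlap was seen for 1 gene (4.76%), KCNMB1, against 7.48% of all genes. With median-of-ratios scaling, quantile normalization or removal of mitochondrially encoded genes, 0 channel genes lay apart, KCNMB1 included. The shares of all genes were then 16.3%, 15.9% and 12.5%. The median over the 21 channel genes in the main fit was 0.01, with 11 above and 10 below 0, and -0.035 over all genes.

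Markers of smooth muscle and pericytes are given beside KCNMB1 and KCNJ8, neither of which passed the test. ABCC9, the sulfonylurea receptor that pairs with KCNJ8, was at 6.89 ± 3.21 TPM in HOPE 24 h against 12.6 ± 7.36 TPM in No NRP hearts, a log2 fold change of -0.74 (SE 0.41). ACTA2 was at 34.4 ± 16.2 against 77.7 ± 9.06 TPM, or -1.28 (SE 0.36, unadjusted p = 0.00316 and adjusted p = 0.402 by limma). The 10 smooth muscle and pericyte markers in the table summed to 270, 458 and 530 TPM in HOPE 24 h, 488, 578 and 529 TPM in No NRP and 388 to 550 TPM in SCS hearts. Among the 9 of them that were tested, 6 had a log2 fold change below 0 and 3 above, the latter being CNN1, CSPG4 and MCAM (named after their values were seen), with a median of -0.49. At an unadjusted p under 0.05, 3 were lower and 0 higher, beside 3.23% and 2.78% of all genes, and MYH11 is the one listed at 0. In HOPE 24 h against SCS hearts, 7 of the 9 were below 0 and 2 above, with a median of -0.31. There 0 were at an unadjusted p under 0.05 by limma, beside 3.14% lower and 1.82% higher of all genes. The part of these markers in the KCNMB1 and KCNJ8 values was not tested.

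**Figure D4:**
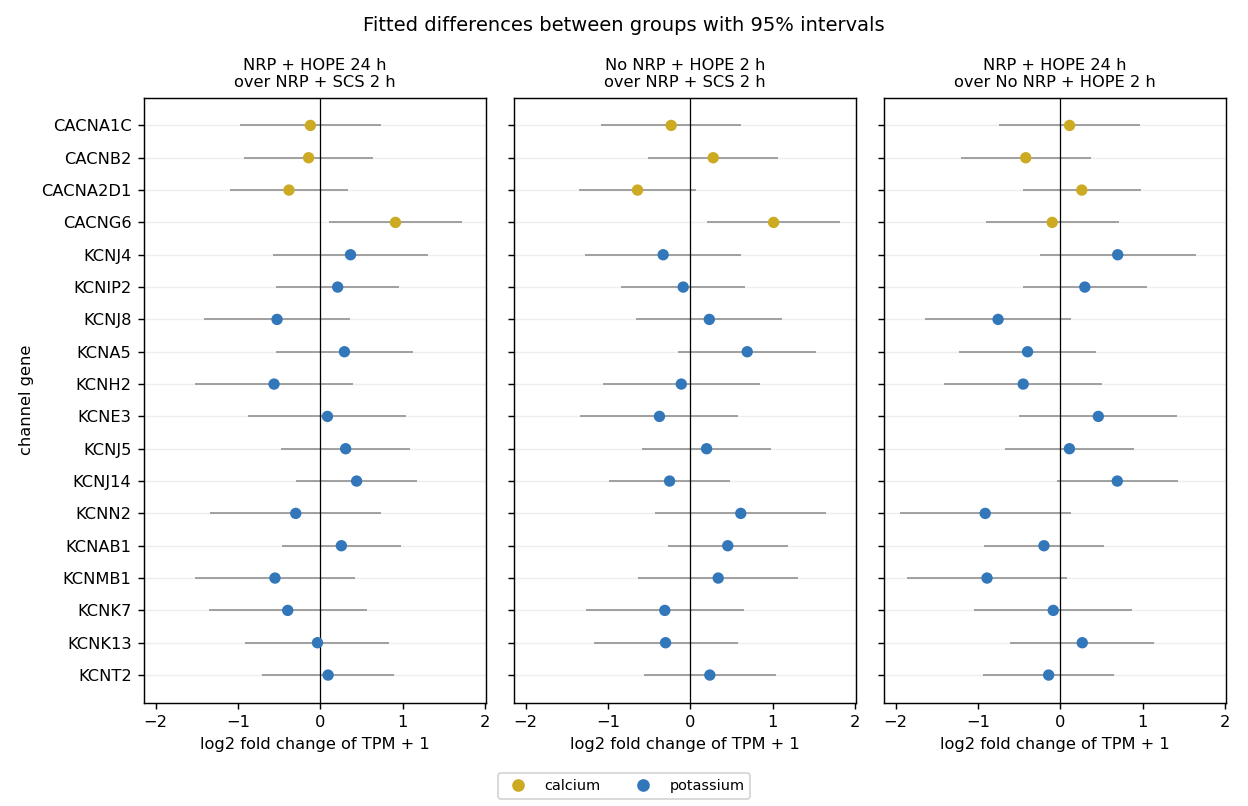
Log2 fold changes of TPM + 1 are shown for 18 of the 21 tested channel genes in the 3 comparisons, with 95% intervals from limma as bars and class as colour. Only the intervals of CACNG6 in the first 2 panels leave out 0, at 0.10 to 1.72 and 0.20 to 1.82, before adjustment over 11782 genes.

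**Figure D5:**
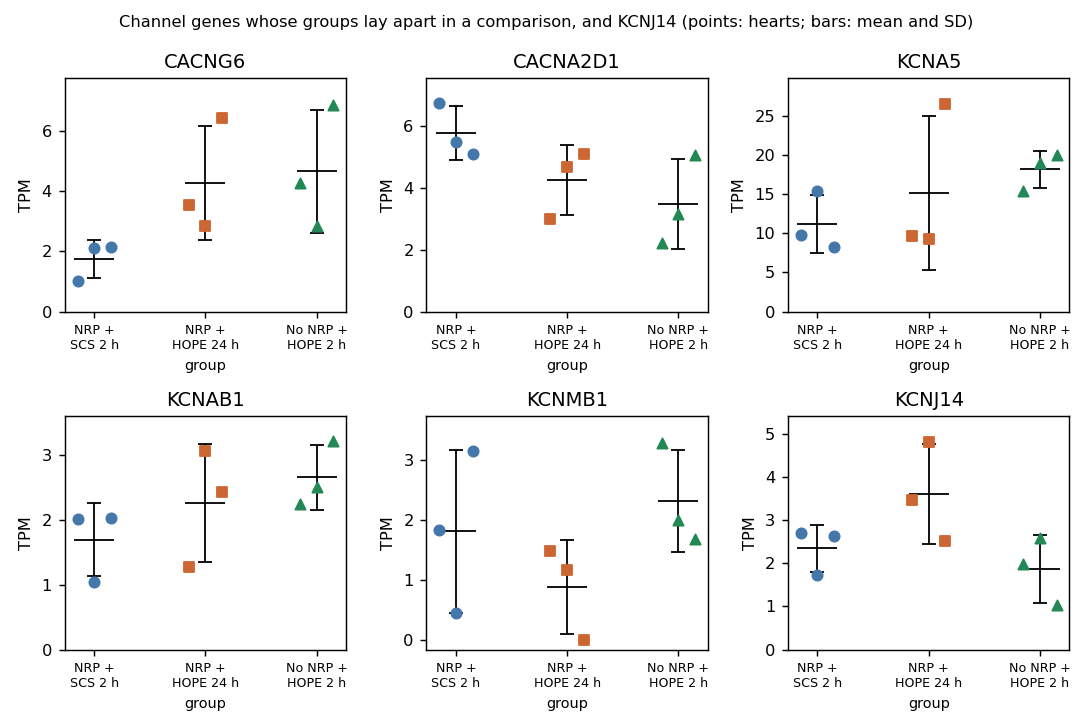
Levels in TPM by group are shown for the 5 of the 21 tested channel genes whose groups did not overlap in a comparison and for KCNJ14, with a point for each heart and the mean and SD as bars. The 3 SCS hearts lie between 1.01 and 2.13 TPM for CACNG6, below all HOPE hearts at 2.84 TPM or more.

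These intervals bound what could have been seen. The 95% interval extended by a median of 0.87 log2 units to either side for the channel genes and 0.76 for all genes tested. The whole interval lay within 1 log2 unit of 0 for 6, 3 and 7 of the 21 channel genes in the 3 comparisons, in the order given. For the others the interval still held a difference of 1 log2 unit.

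The 2 hearts with the least mitochondrial transcript, pigs 30 and 34, are given apart. Pigs 30 and 34 each had the highest level of 8 of the 21 channel genes, beside 33.8% and 22.2% of all genes that were highest there. After median-of-ratios scaling these counts were 6 and 7, beside 10.6% and 15.6%. With mitochondrially encoded genes removed before rescaling they were 7 and 7, beside 14.6% and 18.0%, and the channel genes summed to 468.4 and 447.8 TPM in these hearts against 276.0 to 381.6 TPM in the other 7. With both left out, which was chosen after seeing the data and leaves 2 hearts in Groups 1 and 3, KCNJ8 at -0.93 and KCNH2 at -0.88 were among the channel genes lower at an unadjusted p under 0.05 in HOPE 24 h against SCS hearts, and CACNA2D1 at -0.89 and CACNA1C at -0.69 in No NRP against SCS hearts. CACNG6 was higher in the second of these, at 0.74 with an adjusted p of 0.478 by limma. For the genes named as lower, in that order, the adjusted p by limma was 0.283, 0.37, 0.381 and 0.461. In all, 3 of 21 channel genes were lower in each, where 11.5% and 8.24% of all genes were lower at the same threshold, and no channel gene was called. Groups lay apart for 9 of 21 channel genes (42.9%) in HOPE 24 h against SCS hearts and 6 (28.6%) in No NRP against SCS hearts, beside 37.3% and 28.2% of all genes. HOPE 24 h and No NRP hearts lay apart for 9 (42.9%), beside 31.6%.

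Of the 33 genes listed for the cardiac action potential, 25 were in the table and 13 were tested, and 0 were at an unadjusted p under 0.05 in any comparison by limma, where 1.82% to 4.65% of all genes were so in a given direction. Genes that work with these channels were read from a list outside the symbol rule. Of 32 channel partners, 22 were in the table and 16 were tested, and 0 were at an unadjusted p under 0.05 in any of the 3 comparisons by limma, beside the same shares of all genes. All 22 together summed to 831 to 1609 TPM per heart, highest in pig 30. The anchoring protein AKAP9 at -0.41 (SE 0.27) and the desmosomal DSP at -0.48 (SE 0.42) were among the smallest p in HOPE 24 h against SCS hearts, as was GEM, an inhibitor of L-type channels, at 0.36 (SE 0.33). Of 22 tested cation and chloride channels of other families, 2 were lower and 0 higher at an unadjusted p under 0.05 in that comparison, beside 3.14% and 1.82% of all genes: CLCN3 at -1.02 (SE 0.42), where pig 24 held 11.9 TPM, and TRPM7 at -0.74 (SE 0.34). ANO6 was lower in No NRP than in SCS hearts, 14.2 ± 4.04 against 27.8 ± 6.62 TPM, at -0.94 (SE 0.37, unadjusted p = 0.0239 and adjusted p = 0.602 by limma). TPCN2, an endolysosomal channel, was lower in HOPE 24 h than in No NRP hearts, at -0.98 (SE 0.41, unadjusted p = 0.0326 and adjusted p = 0.795 by limma), the 1 gene of this list past that level there, as ANO6 was before. Of all genes, 3.23% were lower in that comparison and 4.65% in that of ANO6.

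Of 22 tested transcription factors known to act on cardiac channel genes, 2 were lower and 0 higher in HOPE 24 h than in SCS hearts at an unadjusted p under 0.05, NFATC4 and MEF2D, beside 3.14% and 1.82% of all genes. NFATC4, a calcineurin-dependent factor, was at 7.44 ± 2.90 against 18.1 ± 2.54 TPM, a log2 fold change of -1.23 (SE 0.32, unadjusted p = 0.00197 and adjusted p = 0.387 by limma), and its groups did not overlap. In No NRP against SCS hearts, SHOX2 was higher, at 1.93 ± 0.66 against 0.522 ± 0.517 TPM, and GATA4 lower, at 3.36 ± 0.59 against 7.63 ± 2.10 TPM, both at an unadjusted p under 0.05 with adjusted p of 0.583 and 0.689 by limma. They were 1 of 22 in each direction, beside 2.57% higher and 4.65% lower of all genes. In HOPE 24 h against No NRP hearts 0 were past that level by limma. No gene of these lists passed at the adjusted p in any comparison.

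The locus limits the reading of 6 of the 21 tested genes. In RefSeq Sscrofa11.1, KCNMB1 lies within KCNIP1, and CACNB2, KCNAB1, KCNE3 and KCNN2 are among those that overlap another annotated gene. Whether reads were assigned by strand is not stated, and overlap was read over whole loci. Overlap of exons was not tested. Of the 107 symbols, 104 are listed in RefSeq, and 32 channel symbols listed there have no row under that symbol.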

How the data were processed

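RNA from apex biopsies was enriched for mRNA with oligo(dT), and libraries were sequenced paired-end. Per the labels, the submitters' processing notes name bcl2fastq 2.17, Trimmomatic 0.36, STAR 2.5.2b and featureCounts from Subread 1.5.2. The genome build and the gene lengths behind TPM are not given in the sources used here. The authors deposited TPM, already scaled by them to 1000000 per library, with 1 column per heart. No counts were used here, and no depth could be recovered. ERCC spike-in RNA had been added, but the table holds 0 ERCC rows. Of its 18 value columns, 9 were tied to a heart by the pig number, and 9 others could not be tied to a sample and were not used. Rows without a symbol numbered 12006.

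Channel genes were chosen by symbol prefix. The 11782 genes that reached 1 TPM in 3 or more hearts were fitted together in limma 3.58.1 (R 4.3.3) on log2(TPM + 1), with a mean for each group and eBayes with a trend, so that the 9 hearts shared 1 estimate of the spread. The fold change on this scale understates that of low genes. P-values were two-sided and Benjamini-Hochberg adjusted over all tested genes. The thresholds of the study were kept (adjusted p under 0.05 and a log2 fold change beyond 1 in either direction), on limma in place of its count model, since the values are not counts. Replicates are separate pigs, with 1 library per heart. The fit was tested on simulated data. Summaries used pandas 2.3.3 and numpy 2.4.6.

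The members, gene lists, named genes and ratios were chosen with earlier results of these data known. Values by heart were limited to genes of a list of cardiac action potential genes, the 3 most abundant members of each class and the 5 members of smallest p in each comparison. Some of these genes were given by range or mean, or not named. Genes outside the members came from lists, at most 5 per list and comparison by smallest p. Other members were given by range or count, and 3 tested members, along with 1 untested, are not reported here. MYH11 was named after its values were seen. Alternatives were a pseudocount of 0.1, no filter, a mean of at least 5 TPM, median-of-ratios and quantile scaling, removal of mitochondrially encoded genes, fits of only the 6 hearts compared, eBayes without trend or robust, array weights, and leaving out each heart, or pigs 30 and 34 together.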

Additional observations from a re-analysis of the deposited data

How the results depend on the processing

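No member was called in any of 20 alternatives, 9 of which left out 1 heart. Of 27 pairs of a named member and a comparison, 17 kept their direction in the 19 or 20 alternatives that tested them. Some alternatives cannot turn a direction, since they leave the group means of a gene as they were. These are eBayes without trend or robust, changes of filter, fits of only the hearts compared, and leaving out a heart outside the comparison. Below, A is HOPE 24 h against SCS, B No NRP against SCS and C HOPE 24 h against No NRP, and values are log2 fold changes or counts of the 21 members. Except where a construction is named, the cause was not tested. No paired analysis was possible because the groups compared share no pig number. CACNG6 was at an unadjusted p under 0.05 in 15 of the 19 alternatives that tested it in A and 17 of 19 in B. Both counts include alternatives that leave its fold change as it was, where its p moves only with the estimate of the spread. Median-of-ratios scaling moved the median of all genes in A from -0.12 to 0.0, and 3 hearts a group with unknown depth limit what low genes can show.

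Directions turned as follows. With median-of-ratios scaling CACNA1C in A was 0.018 and KCNIP2 in B 0.011. With quantile normalization CACNA1C in A was 0.018, KCNH2 in B 0.016 and KCNIP2 in B 0.038. With array weights KCNA5 was -0.128, KCNE1 -0.359, KCNIP2 -0.025 and KCNJ4 -0.083 in A, and KCNJ8 -0.001 in B. With pigs 30 and 34 left out, KCNA5 was -0.172, KCNE1 -0.333, KCNIP2 -0.21 and KCNJ4 -0.084 in A, and CACNB2 -0.093 and KCNJ8 -0.184 in B.

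Leaving out 1 heart gave these ranges in A: CACNA1C -0.334 to 0.096, CACNB2 -0.384 to 0.02, KCNJ4 -0.084 to 0.666, KCNIP2 -0.21 to 0.439, KCNA5 -0.172 to 0.536 and KCNE1 -0.333 to 0.288. The lowest of each was without pig 30. Others in A were KCNJ8 -0.926 to -0.267, KCNH2 -0.883 to -0.218, KCNMB1 -0.967 to -0.147 and KCNJ14 0.255 to 0.619. In B they were CACNA1C -0.688 to 0.097, CACNB2 -0.093 to 0.513, KCNJ8 -0.184 to 0.495 and KCNH2 -0.553 to 0.233, lowest without pig 34, and KCNIP2 -0.151 to 0.031. Others in B were CACNA2D1 -0.886 to -0.425, KCNN2 0.087 to 1.018 and KCNJ4 -0.692 to -0.098, also lowest without pig 34, with CACNA2D1 then at an unadjusted p of 0.0255 by limma. KCNA5 was 0.517 to 0.927 in B. There KCNAB1 was 0.266 to 0.55, lowest without pig 25, and KCNE1 0.211 to 0.563, lowest without pig 34. In C they were KCNJ8 -1.157 to -0.342, KCNJ4 0.245 to 1.059, KCNN2 -1.318 to -0.387, KCNMB1 -1.142 to -0.486, KCNJ14 0.46 to 0.872 and KCNE1 -0.73 to -0.11. Over all 19 alternatives that tested it, KCNMB1 was -1.362 to -0.147 in A and -1.989 to -0.486 in C. Members whose groups lay apart numbered 1 to 9 in A and 1 to 6 in C, most without pig 30, and 4 to 7 in B, most without pig 25 or pig 33. Of all genes, 37.3% in A and 24.8% in C lay apart without pig 30, and in B 23.1% without pig 25 and 26% without pig 33. Members higher at an unadjusted p under 0.05 numbered 0 to 1 in A, 0 to 2 in B and 0 to 1 in C, and members lower 0 to 1, 0 to 2 and 0 to 2. Of all genes, 1.1% to 3.78%, 1.68% to 4.82% and 1.61% to 6.44% were higher, and 1.76% to 9.57%, 2.35% to 6.34% and 1.71% to 7.88% lower.

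Counts moved under other settings as well. Members higher at an unadjusted p under 0.05 were 0 in A with a mean of at least 5 TPM or without pigs 30 and 34. In B they were 0 with a mean of at least 5 TPM, 4 with no filter, and 2 with array weights, median-of-ratios, quantile, only the 6 hearts compared or no mitochondrially encoded genes. In C they were 1 with array weights or no filter. Members lower were 2 with array weights, 1 with no filter and 3 without pigs 30 and 34 in A. In B they were 3 without those pigs and 1 with array weights, median-of-ratios, quantile or no mitochondrially encoded genes. In C they were 3 with no filter, 2 without those pigs and 1 with array weights, median-of-ratios, quantile or no mitochondrially encoded genes. Members whose groups lay apart were, in A, 0 with a mean of at least 5 TPM, 6 with no filter, 9 without those pigs and 2 without mitochondrially encoded genes. In B they were 1 with a mean of at least 5 TPM and 9 with no filter. In C they were 7 with no filter, 9 without those pigs, and 0 with a mean of at least 5 TPM, median-of-ratios, quantile or no mitochondrially encoded genes. The filters change how many members are tested, to 87 with no filter and 9 with a mean of at least 5 TPM. Over the settings named for each count, 1.27% to 1.66% of all genes were higher in A, 1.95% to 7.67% in B and 2.56% to 3.59% in C, and 2.86% to 12.2%, 6.56% to 8.28% and 2.89% to 12.3% were lower. With no filter 8.6%, 11.9% and 7.17% of all genes lay apart in A, B and C, beside 6.9%, 10.3% and 8.05% of members. In A, 8.63% lay apart with a mean of at least 5 TPM, 37.3% without those pigs and 16.1% without mitochondrially encoded genes, in B 16.4% with a mean of at least 5 TPM, and in C 5.87%, 16.3%, 15.9% and 12.5% with that filter, median-of-ratios, quantile and no mitochondrially encoded genes and 31.6% without those pigs. Rescaling without mitochondrially encoded genes raises each sum by construction, to means in SCS, HOPE 24 h and No NRP hearts of 18.13, 17.63 and 14.82 TPM for sodium, 75.17, 69.7 and 76.45 TPM for calcium, 248.2, 267.3 and 250.0 TPM for potassium and 1.165, 0.5417 and 1.303 TPM for pacemaker genes.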
